A study of Mus musculus with 16 samples.

Results

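Heat shock proteins and chaperones bind other proteins while these fold, and 81 of the 22396 gene symbols measured in sorted cells of the mouse distal colon belonged to this group. Members were the symbols that start with Hsp followed by a, b, d, e, h or a digit, with Dnaja, Dnajb or Dnajc and a number, or with Cct and a digit from 2 to 8. This gave 28 Hsp, 45 Dnaj and 8 Cct genes, and Cct6a was not analysed here. Hsp70 proteins bind unfolded stretches of a protein and release them in a cycle driven by ATP, with J-domain (Dnaj) proteins delivering the client and exchange factors such as Hspa4 and Hsph1 resetting the cycle. Hsp90 proteins act later on nearly folded clients such as kinases, and chaperonins (Cct in the cytosol, Hspd1 with Hspe1 in mitochondria) enclose a protein in a barrel. When unfolded proteins build up in the cytosol, the transcription factor Hsf1 raises Hspa1a, Hspa1b and other heat shock genes, whereas stress in the endoplasmic reticulum (ER) raises Hspa5 and its partners, a response that secretory cells such as goblet and plasma cells use heavily.

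Cells carrying EpCAM, a surface protein of epithelial cells, were sorted by FACS from 16 mice, with a separate library per animal. Control mice (Tnfr2-f/f) had floxed alleles of Tnfrsf1b, the gene of the TNF receptor TNFR2, and mice labelled knockout (Vil1::Cre;Tnfr2-f/f) had the same alleles with Cre recombinase driven by the villin promoter, which is active in intestinal epithelium. There were 4 controls and 5 mice labelled knockout given water, and 3 controls and 4 mice labelled knockout given 3% dextran sulfate sodium (DSS), which injures the colonic epithelium, for 6 days. By the labels all were dissected at day 12, while the study's methods give a slightly higher DSS concentration and an earlier day for uninjured mice, and state that injured regions were dissected out after DSS. All 7 DSS-treated mice were female, from 2 cages. The 9 water-treated mice were 4 males from a cage and 5 females from another. No cage held both treatments, so treatment and cage cannot be told apart.

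Values are TPM, a transcript level corrected for length and library size, summed over the listed transcripts of a gene. TPM keep no record of how many reads stand behind a value, so the depth of single libraries is unknown. Each treatment came as a separately scaled table. Genotypes were therefore tested within a treatment on the deposited TPM, and the treatments were set side by side, with no test, after rescaling all 16 mice by median-of-ratios factors (rescaled TPM). On the deposited scale the median gene was 0.32 higher after DSS in log2(TPM + 1), and after rescaling this shift was 0.01. In water, Tnfrsf1b had 11.1 to 15.5 TPM in controls and 9.23 to 14.8 in mice labelled knockout, and 13.4 to 22.2 and 13.5 to 27.0 TPM after DSS. Its level thus did not set the genotypes apart, which does not check the deletion because the transcript is quantified whole. All 11 epithelial markers (such as Epcam, Krt8 and Cdh1) were above 1 TPM in both treatments. Leukocyte and plasma cell transcripts were also present, mostly in the water-treated mice: 17 leukocyte genes had a sum between 860.4 and 1651 TPM there and between 30.6 and 93.7 TPM after DSS, and immunoglobulin genes took 1.71 to 49.0% of the listed TPM in water and 0.0274 to 2.32% after DSS.

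Some chaperone promoters carry short elements that Hsf1 or the ER stress factors bind, and these are shown because the inducible and the ER chaperones are known for them. Promoters of 66 members were found in RefSeq on GRCm38.p6, as windows from 250 bases before to 50 bases after the start. The heat shock element was searched on both strands as 3 units, GAA, TTC and GAA, with NN between neighbours. It lay in the promoters of Hspd1, Hspe1, Hsph1 and Dnajb6, 4 of 66 members (6.06%) against 0.662% of the 27025 genes with a promoter. The ER stress element, searched on both strands as CCAAT and CCACG with 9 bases of any kind between them, lay in Hspa5, Hsp90b1 and Dnajc3, 3 of 66 members (4.55%) against 0.137% of all genes. A shorter form of the heat shock element with 2 units, GAA and TTC with NN between, chosen after the longer form had been counted, lay in 16 of 66 members (24.2%), Hspa1a and Hspa1b among them, and in 9.04% of all genes. A match is a description of the letters and not a measured site. Gene positions are spans over all annotated isoforms, so an element before a promoter start can lie inside the span of a gene. Hspd1 (chr1:55077835-55088243, minus strand) and Hspe1 (chr1:55088132-55091307, plus strand) lie head to head with overlapping spans. The starts of their listed transcripts have 107 bases between them, and a pair of overlapping heat shock elements lies in that gap. In the lines that follow, the letters are 5′ to 3′ on the strand of the gene (for the shared promoter, of Hspe1), with the matched element in capitals.
Hspd1 and Hspe1, shared (chr1:55088053-55088082, plus strand): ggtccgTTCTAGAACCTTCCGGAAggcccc
Hspa5 (chr2:34772020-34772049, plus strand): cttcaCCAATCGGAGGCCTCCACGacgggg
Hsp90b1, far element (chr10:86705632-86705661, minus strand): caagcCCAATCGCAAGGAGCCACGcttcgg
Hsp90b1, near element (chr10:86705527-86705556, minus strand): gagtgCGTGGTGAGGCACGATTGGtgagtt
Dnajc3 (chr14:118937822-118937851, plus strand): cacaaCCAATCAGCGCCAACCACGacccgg

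Hspa1a (chr17:34969190-34972156) and Hspa1b (chr17:34956436-34959238) are neighbouring copies on the minus strand, and their promoters are printed because they show how far the copies are alike. The 124 bases just before the start were identical in 123 positions, with the 2-unit element in capitals. The transcripts are also alike: of their 31-base stretches, 34.6% in Hspa1a and 32.0% in Hspa1b occur in no other annotated gene. Reads from the rest had to be divided between the copies by kallisto, the program that the authors used to assign reads to transcripts, so the sum of both genes is firmer than either value.
Hspa1a (chr17:34972157-34972280, minus strand): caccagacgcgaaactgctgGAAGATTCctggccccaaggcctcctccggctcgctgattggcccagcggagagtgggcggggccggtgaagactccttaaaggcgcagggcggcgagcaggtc
Hspa1b (chr17:34959239-34959362, minus strand): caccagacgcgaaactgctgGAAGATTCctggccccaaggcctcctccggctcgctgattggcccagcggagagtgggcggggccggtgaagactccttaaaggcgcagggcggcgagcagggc

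Chaperone transcripts were abundant, and the leading 7 genes made up 62.4% of their TPM. Of the 81 members, 65 had a mean of at least 1 deposited TPM over the 16 mice, 16 were below 1 TPM, and 4 of those were listed at 0 in every mouse. Above 10 TPM there were 42 members and above 100 TPM 13. The order was led by Hsp90ab1, the constitutive cytosolic Hsp90, with a mean of 777 TPM. Hspa5 (BiP, the Hsp70 of the ER) followed with 496 TPM, inducible Hspa1b with 494 TPM, constitutive Hspa8 (Hsc70) with 485 TPM and Hsp90b1 (Grp94, the Hsp90 of the ER) with 470.0 TPM. These last 4 did not differ beyond the spread between mice of a group, which had a coefficient of variation of 22.2% for Hspa5 and 46.9% for Hspa1b. Next came Hsp90aa1, the inducible cytosolic Hsp90, with 416 TPM, Hspa1a with 308 TPM, Hspd1 (Hsp60) with 251 TPM and Hspe1 (Hsp10) with 220.1 TPM. Among the other families Cct2 led the Cct genes with 148 TPM, Dnajb1 (Hsp40) the Dnajb genes with 143 TPM, Dnaja2 the Dnaja genes with 61.0 TPM and Dnajc10 the Dnajc genes with 38.0 TPM.

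Together the 81 genes took 0.810% ± 0.166 (SD, n = 4) of the listed TPM in the water-treated controls and 0.742% ± 0.235 (n = 5) in the water-treated mice labelled knockout. After DSS the share was 0.902% ± 0.195 (n = 3) in controls and 1.195% ± 0.233 (n = 4) in mice labelled knockout. With immunoglobulin genes left out of the total the share in water became 0.988% in controls and 1.063% in mice labelled knockout, and after DSS it was 0.904% and 1.204%. Single mice ran from 0.420 to 1.07% in water and from 0.678 to 1.42% after DSS with all genes in the total, and the treatments overlapped with and without the immunoglobulin genes.

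**Figure D1:**
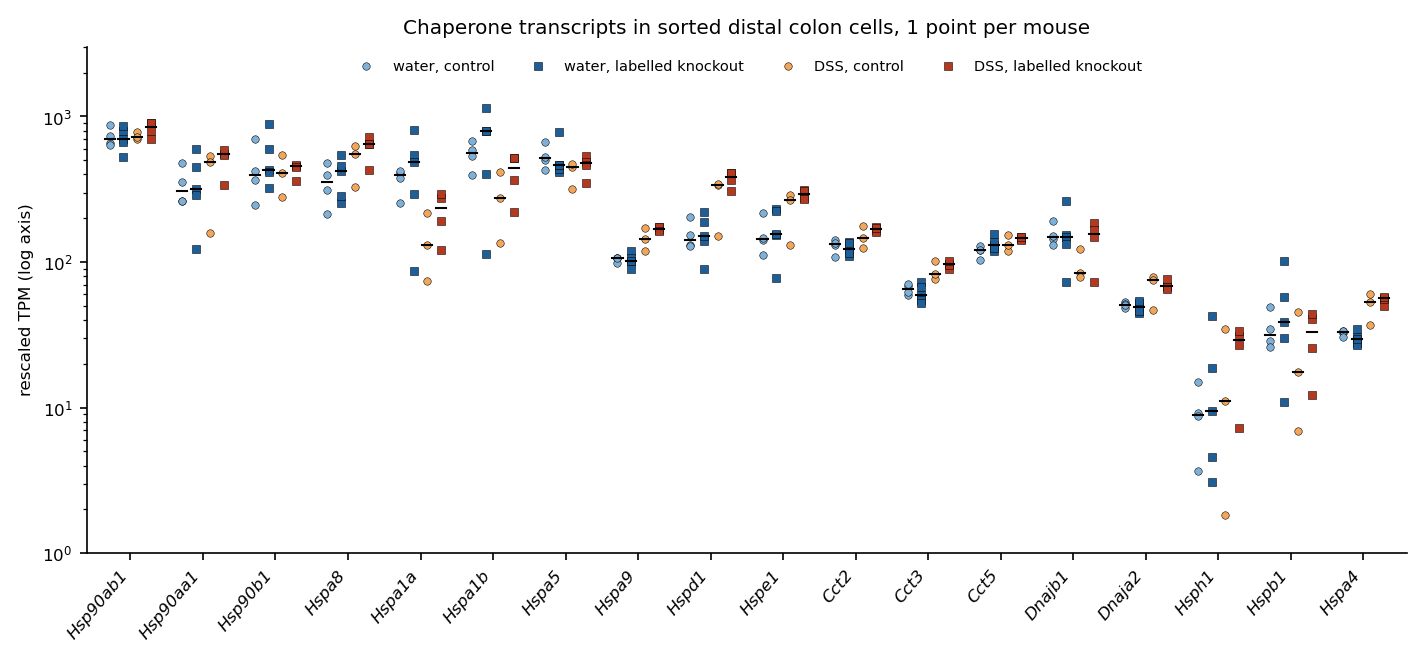
Rescaled TPM (log axis) of 18 chaperone genes in each of the 16 mice, by group, where each point is a mouse and the bar is the median of the group. Hspa9, Cct3 and Hspa4 are higher in every DSS-treated mouse than in every water-treated mouse, while Hspa1a, Hspa1b, Hsph1 and Hspb1 spread widely within each treatment.

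Set side by side, the DSS-treated mice had higher transcripts of mitochondrial Hspa9, of Cct3 and of the exchange factor Hspa4 without overlap between mice. Higher medians of mitochondrial Hspd1 and Hspe1 and lower medians of the inducible Hsp70 genes came with overlap. Of 64 members with a mean of at least 1 rescaled TPM, 7 were higher in all 7 DSS-treated mice than in all 9 water-treated mice, where 4.49% of all 11207 genes were. These were Hspa4, Hspa9, Cct3, Dnajc1, Dnajc10, Dnajc13 and Dnajc22. In the other direction 1 member, Hspa2, was lower without overlap, against 7.04% of all genes. The difference was above 0 for 41 of 64 members, with a median of 0.16 in log2(rescaled TPM + 1), where the median of all genes was 0.01 and 50.5% were above 0. On other scales these 7 genes were among the 11 members higher on ranks within a mouse (10.1% of all genes higher, 5.19% lower), the 9 of 65 with equal totals (11.6% and 3.53%) and the 16 of 65 on the deposited scale (18.9% and 4.16%). Hspa2 was lower without overlap on ranks and with equal totals, but not on the deposited scale. In subsets of the mice, where genes without overlap in all 16 are kept by the choice of mice apart from small changes in scaling, 11 of 64 members were higher among controls alone (10.9% of all genes higher and 14.0% lower), 14 of 64 among mice labelled knockout alone (17.7% and 17.8%) and 8 of 64 among females alone (7.27% and 10.5%). Without the DSS-treated control 3 the count was 14 of 64, with 12.2% of all genes higher and 12.1% lower.

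**Figure D2:**
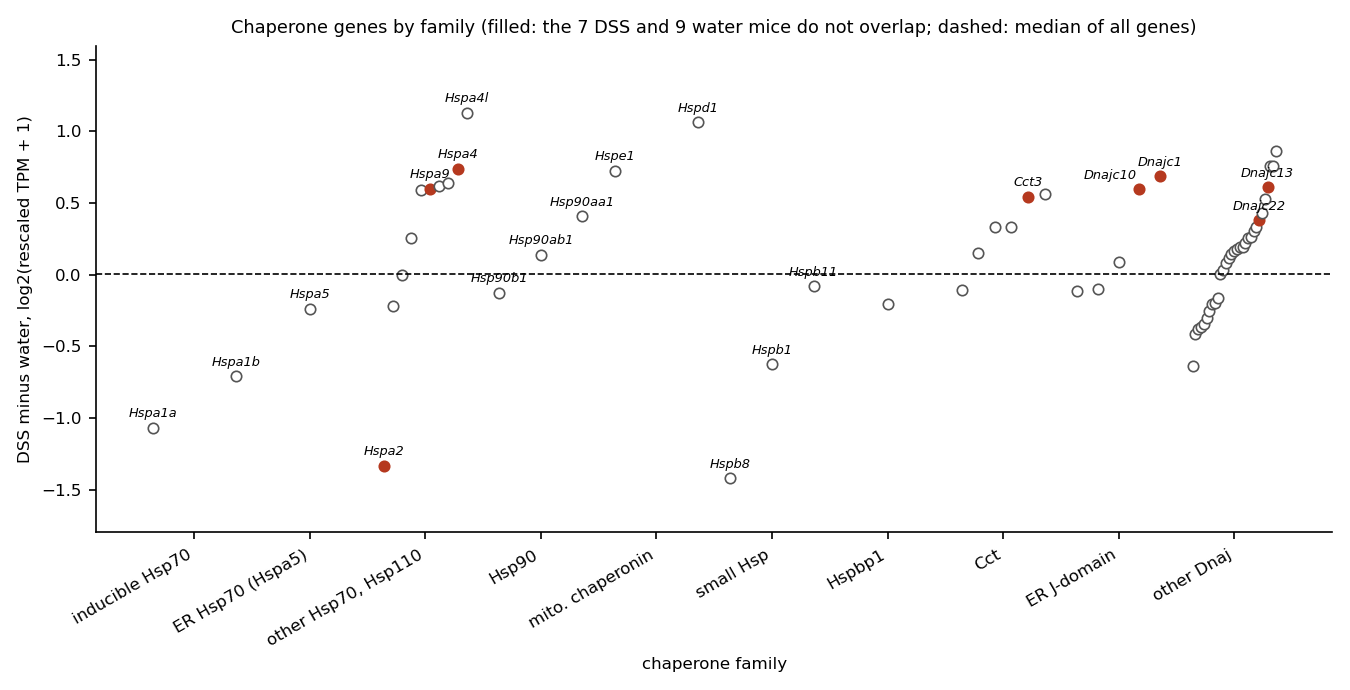
Difference between the mean log2(rescaled TPM + 1) of the 7 DSS-treated and the 9 water-treated mice for each of 64 chaperone genes, sorted within families; filled points mark genes whose mice do not overlap and the dashed line is the median of all genes at 0.01. The other Hsp70, mitochondrial chaperonin and Cct genes lie mostly above the line, and the inducible Hsp70, Hspa5 and small heat shock genes below it, of which Hspa5 turned to 0.12 on the deposited scale.

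The inducible Hsp70 genes were lower at the median after DSS. Hspa1a ran from 87.0 to 808 rescaled TPM in water (median 411) and from 74.1 to 294 after DSS (median 192). Hspa1b ran from 114 to 1149 in water (median 590.4) and from 136 to 518 after DSS (median 368). Water-treated mouse 4 labelled knockout lay near or below the lowest DSS value for both genes, while the other 8 water-treated mice lay at or above the middle of the DSS range. The differences were -1.07 for Hspa1a and -0.71 for Hspa1b in log2(rescaled TPM + 1), and neither gene was free of overlap. On ranks within a mouse Hspa1a stayed lower, with a median percentile of 98.2 in water and 97.6 after DSS, but Hspa1b did not, at 98.7 in both. Among controls alone Hspa1a was lower without overlap, as were 14.0% of all genes, with a difference of -1.47, and among mice labelled knockout it overlapped, with -0.74. Fos, Jun and other immediate early genes, which respond to stimulation within minutes, also had lower means: 14 of the 15 had a lower mean after DSS and 3 of these did not overlap, with a median of -0.62, where 7.04% of all genes were lower without overlap and 50.5% had a difference above 0. On the deposited scale 12 of the 15 were lower and none was free of overlap, where 68.3% of all genes were above 0 and 4.16% lower without overlap. Leukocyte markers (13 of 15 measured lower without overlap) and stromal markers such as Dcn and Acta2 (all 9 measured lower, with a median of -0.99 and none free of overlap) were lower too. The part of any of these genes in the Hsp70 values was not tested.

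The constitutive partner Hspa8 went the other way. Hspa8 had 215 to 542 rescaled TPM in water (median 394) and 327 to 725 after DSS (median 629.9), a difference of 0.62 with overlap. Within each mouse the sum of Hspa1a and Hspa1b was 0.713 to 4.27 times the TPM of Hspa8 in water (median 2.72), and 0.641 to 1.25 times after DSS (median 0.865). Such a ratio needs no scaling between the tables. Of the 9 water-treated mice, mouse 4 labelled knockout alone had a ratio within the DSS range, and all others had a ratio of at least 1.355, the value of control 3. Of the 31-base stretches of Hspa8, 22.8% occur in no other annotated gene, so its level is uncertain.

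The exchange factors of the Hsp110 kind were higher or spread widely after DSS. Hspa4 had 27.1 to 34.9 rescaled TPM in water and 37.0 to 60.6 after DSS, a difference of 0.74 with no overlap. Its close relative Hspa4l, named here after its values were seen, had the greatest positive difference of any member, 1.13, from levels of 1.01 to 2.25 in water and 2.14 to 5.93 after DSS, which overlapped. Hsph1 (Hsp110), also inducible by heat, varied most between mice, with 3.07 to 42.7 in water and 1.82 to 34.7 after DSS. Hspa2, an Hsp70 best known from the testis, was low throughout, at 4.23 to 15.5 in water and 1.69 to 3.22 after DSS, a difference of -1.33 on a scale that understates low genes.

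Both cytosolic Hsp90 genes overlapped between the treatments, and Hsp90ab1 differed little. Hsp90ab1 had 525 to 875 rescaled TPM in water and 697 to 908 after DSS, a difference of 0.14 with overlap. Hsp90aa1 had 124 to 593 in water and 158 to 592 after DSS, a difference of 0.41 with overlap. Of the 24 genes for co-chaperones of Hsp70 and Hsp90 that are no members (such as Stip1, which links them, and the Bag exchange factors), 17 had a difference above 0, with a median of 0.25, and 1 was higher without overlap, Bag4. Among all genes 50.5% were above 0 and 4.49% were higher without overlap. Among J-domain proteins of the cytosol, Dnaja2 had 44.7 to 53.7 in water and 46.6 to 78.5 after DSS, whereas Dnajb1 had 73.1 to 262 in water and 72.8 to 185 after DSS, with differences of 0.43 and -0.35, the latter turning to 0.01 on the deposited scale. Of the other J-domain genes, Dnajc13, which acts in endosomal sorting, had 8.49 to 13.0 in water and 13.1 to 18.6 after DSS, and Dnajc22, named after its values were seen, had 22.3 to 31.6 and 33.9 to 39.7.

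The Cct chaperonin folds actin and tubulin as a ring of 8 different subunits, of which Cct2, Cct3, Cct4, Cct5, Cct7 and Cct8 were measured as members above 1 TPM. The subunits did not move alike. Cct3 was higher without overlap, with 52.5 to 72.5 rescaled TPM in water and 77.0 to 102 after DSS, a difference of 0.54. Of the 31-base stretches of its listed transcript 0.103% are absent from its other isoforms, which are not listed, so its level depends on how reads were divided among isoforms. Cct8 differed by 0.56, Cct4 by 0.34 and Cct2 by 0.33, each with overlap. Cct5 differed by 0.15 and Cct7 by -0.11. On the deposited scale, where 18.9% of all genes were higher without overlap, Cct2, Cct4 and Cct8 did not overlap either, and Cct7 turned to 0.24. The remaining subunit Tcp1, the prefoldins that hand over clients and the tubulin cofactors formed a list of 15 genes, of which 13 were measured: 6 had a difference above 0, none was higher and 1, Tbcb, was lower without overlap. Among all genes 50.5% were above 0, 4.49% were higher and 7.04% lower without overlap.

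The 3 mitochondrial chaperones Hspa9, Hspd1 and Hspe1, had higher means after DSS. Hspa9 (mortalin), the Hsp70 that pulls proteins into the mitochondrial matrix, had 89.6 to 119.3 rescaled TPM in water and 119.7 to 175 after DSS, a difference of 0.60 with no overlap although the nearest mice almost touched. Hspd1 had 89.8 to 222 in water and 149.9 to 407 after DSS, a difference of 1.06 and a ratio of means of 2.12. Hspe1, its lid, had 77.9 to 232 in water and 131 to 313 after DSS, a difference of 0.73. The lowest DSS value of all 3 genes was that of control 3. Without this mouse Hspd1 and Hspe1 did not overlap, but leaving out the lowest mouse favours such a result. In that setting 12.2% of all genes were higher without overlap. Of the stretches of Hspd1 and Hspe1, 44.2% and 51.9% occur in no other gene. Of 10 measured genes that are no members but serve mitochondrial protein quality (Trap1, the Grpel exchange factors of Hspa9 and the Clp and Lon proteases), 6 had a difference above 0 with a median of 0.10, and 1, Grpel2, was higher without overlap. Among all genes 50.5% were above 0 and 4.49% were higher without overlap.

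The ER chaperones did not follow the mitochondrial ones. Hspa5 (chr2:34771970-34777547) had 417 to 786 rescaled TPM in water (median 467) and 316 to 535 after DSS (median 467). Its difference of -0.24 turned to 0.12 on the deposited scale, to 0.17 with equal totals and to 0.40 percentile points on ranks, so no direction can be given. Hsp90b1 likewise had 247 to 885 in water and 278 to 546 after DSS, with a difference of -0.12 that turned to 0.23 on the deposited scale. The J-domain partners of Hspa5 split. Dnajc10 (ERdj5), which reduces disulfide bonds, had 24.5 to 37.9 in water and 38.0 to 51.5 after DSS, and Dnajc1 (ERdj1) had 2.24 to 4.12 and 4.20 to 6.35, both without overlap. Dnajb9 (ERdj4), Dnajb11 (ERdj3) and Dnajc3 (p58IPK) differed by -0.10, -0.11 and 0.09, of which the negative values turned to 0.25 and 0.24 on the deposited scale. Of these, Hspa5, Hsp90b1 and Dnajc3 carry the ER stress element printed above, and none of the 3 was free of overlap.

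The copies Hspa1a and Hspa1b kept a steady ratio within a treatment that differed between treatments: Hspa1b was 1.31 to 1.65 times Hspa1a in water and 1.76 to 2.10 times after DSS, with no overlap, for values that rest on the division of shared reads. Ratios within a mouse set the compartments side by side without a scaling between tables. Hspa9 was 0.152 to 0.246 times the TPM of Hspa5 in water and 0.310 to 0.4998 times after DSS, with no overlap. Hspa9 was already free of overlap by itself, and the share of all genes whose ratio to Hspa5 does not overlap is not given here. Hspd1 was 0.192 to 0.477 times Hspa5 in water and 0.475 to 0.893 times after DSS, where the highest water-treated mouse reached just past the lowest DSS-treated one. Hspd1 and Hspe1, which work together, kept a narrower ratio of 0.816 to 1.15 in water and 1.14 to 1.33 after DSS. The ratio of Hsp90b1 to Hspa5 was 0.575 to 1.27 in water and 0.860 to 1.17 after DSS.

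**Figure D3:**
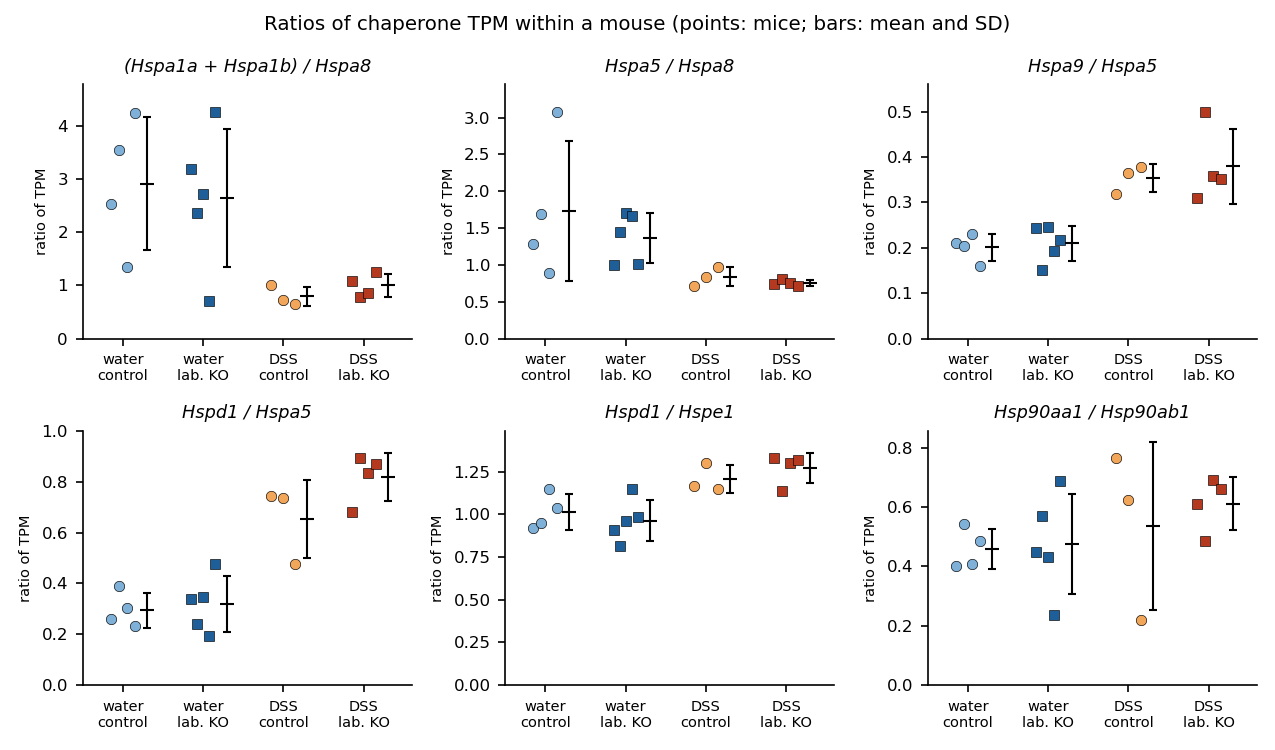
Ratio of the TPM of chaperone genes within each mouse (y axis, from 0) in the 4 groups, with each point a mouse and the bar at its right the mean and SD of the group. Hspa9 over Hspa5 does not overlap between treatments (0.152 to 0.246 in water, 0.310 to 0.4998 after DSS), nor does Hspa9 by itself, whereas Hsp90aa1 over Hsp90ab1 overlaps broadly.

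Other genes of ER folding and the unfolded protein response had no sign that held on every scale. Their median lay below that of all genes on both the rescaled and the deposited scale. Of 26 measured genes that are no members, 6 had a difference above 0, the median was -0.31, none was higher and 2 (7.69%) were lower without overlap, against 7.04% of all genes. On this scale 50.5% of all genes were above 0, with a median of 0.01. On the deposited scale 14 of the 26 were above 0, with a median of 0.01, 2 were higher and none lower without overlap. There 68.3% of all genes were above 0 with a median of 0.32, and 18.9% were higher and 4.16% lower without overlap. The 2 that were lower after rescaling were Herpud1 and Edem1, which serve the removal of misfolded ER proteins, with 103.8 to 189.7 and 24.4 to 90.3 rescaled TPM in water, and 51.0 to 91.3 and 14.7 to 23.3 after DSS. Xbp1, the splicing-activated factor of this response, had 103.2 to 468 in water and 93.7 to 124 after DSS. Pdia3, a disulfide isomerase of glycoproteins, went the other way, with 189 to 275 in water and 252 to 407 after DSS. Plasma cell and leukocyte transcripts were lower after DSS. Of 8 plasma cell genes 5 were lower without overlap, with a median of -4.73, and of 15 measured leukocyte genes 13 were. After DSS, Tnfrsf17, Ighm and Igha were below 1 TPM at the mean, as were Adgre1, Itgax and Ms4a1. Their part in the ER values was not tested, and fewer cells of a type and less RNA per cell cannot be told apart in these libraries. Across the 9 water-treated mice, the mean log2(TPM + 1) of the plasma cell list and that of Hspa5 had a Pearson r of 0.543 (exact permutation p = 0.127, adjusted 0.507 over 4 relations) and a Spearman rho of 0.60 (p = 0.0968, adjusted 0.387). Without the 2 mice farthest from the median of the list r was 0.20.

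Small heat shock proteins hold unfolded proteins without ATP. The 3 measured genes grouped here by their Hspb symbol, Hspb1, Hspb8 and Hspb11, had a median difference of -0.63, and only the inducible Hsp70 genes had a lower one, -0.89. Hspb11 differed by -0.08. Hspb1 (Hsp25) had 10.9 to 102 rescaled TPM in water and 6.93 to 45.4 after DSS. Hspb8 had 1.81 to 10.2 in water and 0.353 to 2.82 after DSS, the greatest negative difference of any member at -1.42, with overlap. The summed stromal markers moved the same way, from 234.6 to 794 TPM in water and from 118.9 to 538 after DSS as deposited, with the endothelial Pecam1 and the muscle gene Des below 1 TPM at the mean after DSS, and their part in these values was not tested. Of the 31-base stretches of Hspb1, 38.3% occur in no other gene.

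Genotype was then compared within each treatment, to ask whether chaperones differed where TNFR2 is meant to be absent from the epithelium. After DSS no chaperone gene passed the threshold (adjusted p under 0.05 by limma), and none had an unadjusted p under 0.05. Of 10899 genes tested, 1 was called (0.00918%) and 2.65% had an unadjusted p under 0.05, against 0 of 65 members on either count. The fold change was above 0 for 50 of 65 members, with a median of 0.12 in log2(TPM + 1), where 52.8% of all genes were above 0 with a median of 0.02. DSS-treated control 3 was the lowest of the 7 mice for 29 of 65 members and for 24.6% of all genes. Without it, 44 members were above 0 with a median of 0.07, where 56.4% of all genes were above 0 with a median of 0.03. No member was free of overlap between the genotypes, where 2.13% of all genes were higher and 1.55% lower in that way.

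Mitochondrial and Cct chaperones had the smallest p-values after DSS. Hspa9 had 166, 194 and 148 deposited TPM in the controls and 198, 207, 206 and 193 in the mice labelled knockout. Cct7 had 26.6, 29.2 and 38.4 in the controls and 46.7, 37.3, 35.6 and 42.7 in the mice labelled knockout. Cct8 had 41.1, 54.8 and 34.0 against 54.1, 55.4, 51.5 and 52.7. In Hspa9 and Cct8 the mice labelled knockout lay together near or above the highest control, and the controls were more spread. In Cct7 the spreads were similar, with 35.6 to 46.7 in the mice labelled knockout and 26.6 to 38.4 in the controls. The log2 fold changes were 0.25 ± 0.12 (SE) for Hspa9, 0.37 ± 0.16 for Cct7 and 0.32 ± 0.16 for Cct8, each with an adjusted p of 1.00 by limma. Hspd1 had 388, 391 and 186 TPM in controls and 434, 369.7, 479.9 and 477 in mice labelled knockout, which gave a log2 fold change of 0.52 ± 0.27 that fell to 0.17 without control 3.

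The inducible genes differed more but varied more. Hspa1a had 249, 149 and 91.9 deposited TPM in the DSS-treated controls and 329.9, 144, 227 and 345 in the mice labelled knockout. Hspa1b had 477, 313 and 168 in controls and 613, 262, 434 and 608 in mice labelled knockout. Mouse 2 labelled knockout lay below control 2 in both genes, so that the groups overlapped. The log2 fold changes were 0.71 ± 0.40 and 0.63 ± 0.41, both with an adjusted p of 1.00 by limma and exact permutation p-values of 0.229 and 0.286, where 0.0286 is the smallest that 35 splits of the mice allow. Hspa5 had 520.4, 530.2 and 392 TPM in controls and 636, 414, 575 and 548 in mice labelled knockout, which gave a log2 fold change of 0.17 ± 0.18. Without control 3 the fold changes were 0.36 for Hspa1a, 0.23 for Hspa1b, 0.17 for Cct8, 0.16 for Hspa9 and 0.03 for Hspa5. Without control 1 those of Hspa1a and Hspa1b were 1.07 and 0.98, without control 2 that of Cct8 was 0.50, and without mouse 1 or 2 labelled knockout that of Hspa5 was 0.09 or 0.30.

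**Figure D4:**
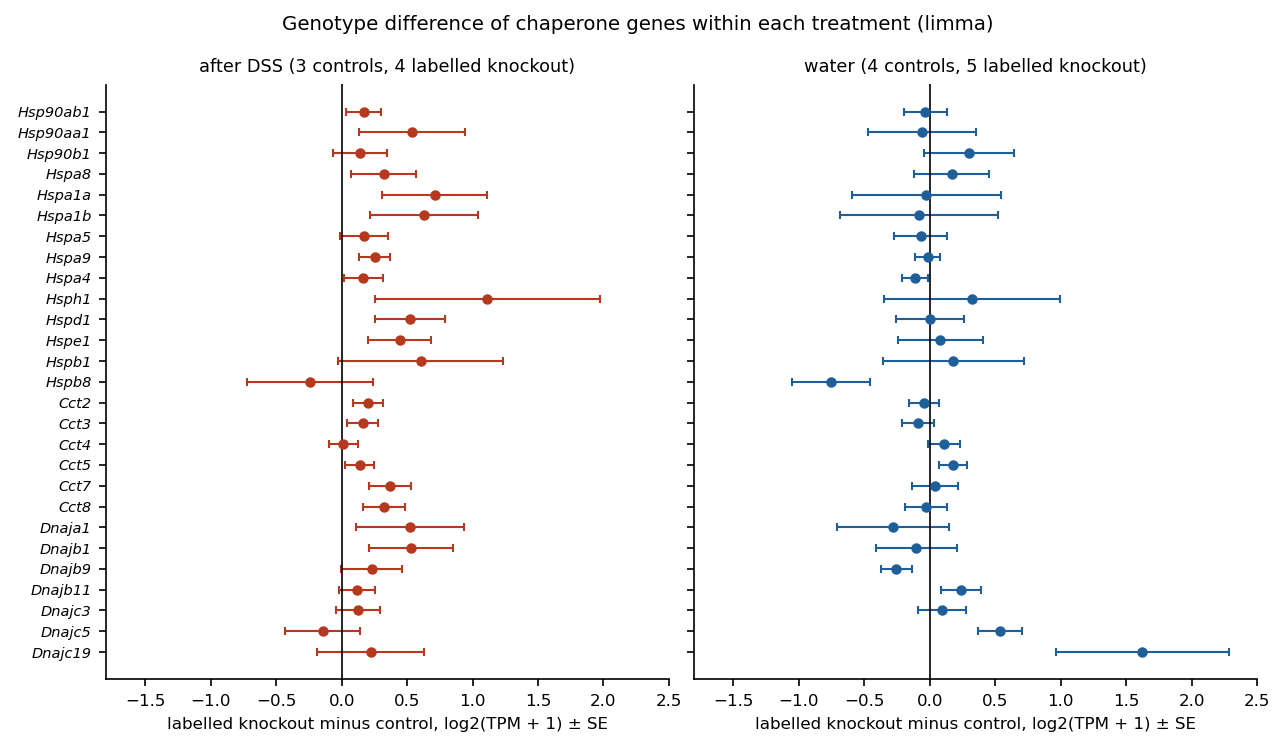
Log2 fold change (labelled knockout minus control, on log2 of TPM + 1) with its standard error from limma for 27 chaperone genes, after DSS at the left and in water at the right. After DSS most points lie right of 0, and none has an adjusted p under 0.05; in water they scatter around 0.

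In the water-treated mice no chaperone gene was called either, of 64 tested, with 1 of 11046 genes called (0.00905%). An unadjusted p under 0.05 was seen for 3 members, where 5.28% of all genes had one, and the fold change was above 0 for 28 of 64 members with a median of -0.02. No member was free of overlap, where 0.67% of all genes were higher and 0.878% lower without it. Dnajc5, the cysteine string protein of secretory vesicles, had 12.7, 16.9, 10.6 and 9.71 deposited TPM in controls and 18.7, 15.4, 16.2, 19.5 and 21.6 in mice labelled knockout, which gave a log2 fold change of 0.53 ± 0.17 (adjusted p 0.865 by limma). Hspb8 had 5.51, 9.35, 6.95 and 5.60 in controls and 5.93, 2.85, 3.26, 5.64 and 1.66 in mice labelled knockout, which gave a log2 fold change of -0.75 ± 0.30. Dnajc19, of the mitochondrial import motor, had 4.15, 5.14, 0 and 11.2 in controls and 15.7, 18.6, 18.7, 9.99 and 5.77 in mice labelled knockout. Only 8.6% of its 31-base stretches are absent from its other isoforms, which are not listed, so its values depend on how reads were divided among isoforms.

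Hspa1a and Hspa1b did not separate the genotypes in water. Hspa1a had 383, 389.6, 234 and 345 TPM in controls and 506, 444, 276, 78.7 and 741 in mice labelled knockout, which gave a log2 fold change of -0.03 ± 0.57. Hspa1b had 550.2, 621, 359 and 489 in controls and 744, 731, 376, 103 and 1054 in mice labelled knockout, which gave a log2 fold change of -0.08 ± 0.60. The mice labelled knockout held both the lowest and the highest value of the 9. Hspa5 had 470.5, 484, 392 and 605 in controls and 390.1, 718, 407, 423 and 426 in mice labelled knockout, which gave a log2 fold change of -0.07 ± 0.20. No gene of the co-chaperone, chaperonin cofactor, mitochondrial or ER folding lists was called in either treatment.

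Single mice stood at the low or high end of several heat shock genes at once. Each mouse was followed through Hspa1a, Hspa1b, Hsp90aa1, Dnajb1, Hsph1, Hspa8, Dnaja1, Hspd1, Hspe1 and Hspb1, a choice made after their values were seen. Water-treated mouse 4 labelled knockout was the lowest of 9 in 9 of these 10 genes and lowest for 11.4% of all genes. Water-treated mouse 5 labelled knockout was the highest in 7 of the 10 and highest for 9.48% of all genes. Over all 64 members, however, mouse 2 labelled knockout was highest for 21 and mouse 5 for 12, while mouse 4 was lowest for 20. After DSS, control 3 was the lowest of 7 in 9 of the 10, but it was also lowest for 24.6% and highest for 32.9% of all genes, so it stood apart in general. Within groups the coefficient of variation was 48.3% for Hspa1a, 46.9% for Hspa1b and 82.1% for Hsph1, against 9.39% for Cct5 and 11.1% for Hspa9. Over the 65 members above 1 TPM its median was 26.6%, against 26.5% over all genes above that level. Over the 16 members above 50 TPM it was 25.1%, and over the 1228 genes above that level 17.1%.

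**Figure D5:**
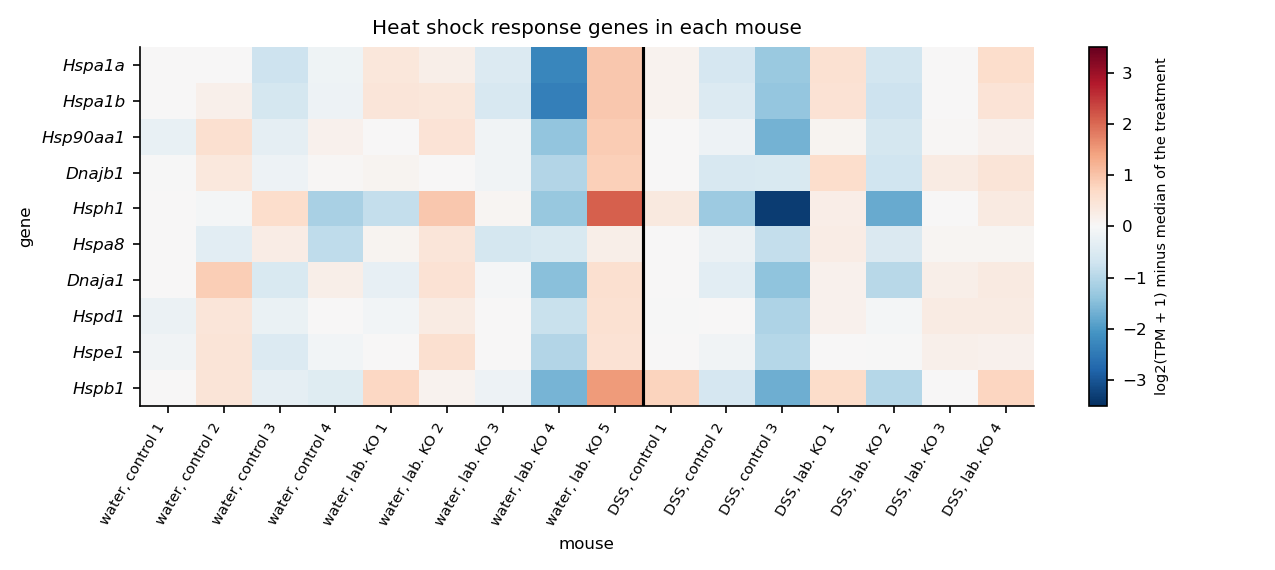
Log2 of deposited TPM + 1 of 10 heat shock genes (rows) in each mouse (columns) minus the median of its treatment, in color; the line parts water from DSS. Water-treated mouse 4 labelled knockout and DSS-treated control 3 are low in 9 of the 10 genes each, and water-treated mouse 5 labelled knockout is high in 7.

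Across mice of a treatment, the Hspa1a and Hspa1b level and the immediate early genes were not related beyond the spread between mice. Pearson's r was -0.152 over the 9 water-treated mice (exact permutation p = 0.614, adjusted 0.824) and -0.202 over the 7 DSS-treated mice (p = 0.664, adjusted 0.824), with Spearman's rho of 0.0333 (p = 0.948) and -0.25 (p = 0.595), both adjusted to 1.00. Without the 2 mice farthest from the median of the list, r was 0.0412 in water and 0.0663 after DSS. For the plasma cell list and Hspa5 after DSS, r was 0.111 (p = 0.824, adjusted 0.824) and rho 0 (p = 1.00).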

How the data were processed

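RNA of sorted EpCAM+ cells from 16 mice was analysed by group as labelled. From stranded polyA libraries the authors estimated transcript levels with kallisto and compared genotypes with sleuth (mm10 per the labels). They deposited TPM per transcript in a table per treatment, scaled between the mice of that table, with principal isoforms only. The deposited tables also hold the authors' test of genotype, which was not used. Of 29373 lines per table, 385 repeats were dropped, and TPM was summed over 28988 transcripts to 22396 symbols. Of 109 chaperone transcripts, all were found in GENCODE M21, 104 with the same version. TPM hold no counts, so no count test was run.

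Genotypes were compared by limma 3.58.1 (R 4.3.3, trend) on log2(TPM + 1), two-sided, leaving out genes whose mean lay under 1 TPM, with Benjamini-Hochberg adjustment over all genes and calls at 0.05. Fold changes on this scale understate low genes. Single genes were also compared by exact permutation, for which 126 splits in water allow a p of 0.00794 at best. The number of mice limits the precision, and p-values set the genotype difference against the spread between mice of a treatment. The main model held no term for cage. In simulated data with 200 changed genes, a log2 change of 1 was recovered in 32% after DSS and 49.5% in water, and a log2 change of 2 in 74.5% and 81%. DSS and water were set side by side without a test. Same-numbered mice are different animals and were not paired.

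Named were the genes of the classic families, the 3 members with the smallest p per genotype comparison, up to 5 members per direction without overlap and the leading member of each family. The members and lists were chosen with earlier results of these data known. Alternatives were the pseudocount, filters, scalings, cage, replicate block, subsets of mice and leaving out each mouse. Python 3.11.15, pandas 2.3.3, numpy 2.4.6 and matplotlib 3.10.9 were used.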

Additional observations from a re-analysis of the deposited data

Results flagged for a closer look

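Among 96 sets of 4 or 5 mice (a gene in a group), 5 held a mouse set apart from the rest of its group by a Dixon test. This is about the share that chance alone gives, 1 in 20, so these mice are listed as flagged and no more. In the water-treated mice labelled knockout, Hspa5 had 718 TPM in mouse 2, which also had the highest immunoglobulin share (49.0%), and Dnajb9 had 21.7 TPM in mouse 1, the lowest there. Among the water-treated controls alone, Hspa4 was lowest in control 4, at 27.9 TPM, where the other controls had 30.3 to 30.7. Over all 9 water-treated mice 27.9 TPM was the median, and the lowest was 24.5 TPM in mouse 4 labelled knockout. After DSS, mouse 2 was the lowest of those labelled knockout for Hspa4, at 59.9 TPM, and for Dnajc3, at 33.5 TPM. The causes were not tested.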

How the results depend on the processing

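No chaperone gene was called for genotype in either treatment under any alternative run. After DSS 1 gene of all was called, and 0 with a pseudocount of 0.1, without a filter or with a replicate block, and 0 to 3 with a mouse left out (3 without control 1, 2 without control 3, 1 without mouse 4 labelled knockout and 0 without each of the others). In water 1 gene was called, and 0 with a pseudocount of 0.1, at a mean of at least 5 TPM or with a replicate block, 4 without a filter and 1 to 2 with a mouse left out (2 without control 1, control 3 or mouse 1 labelled knockout). Same-numbered mice did not deviate together (correlations of -0.197 to -0.025 after DSS and -0.077 to 0.093 in water), so the block removes an arbitrary split.

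Members higher after DSS without overlap numbered 7 (4.49% of all genes were higher), 16 on the deposited scale (18.9%) and 11 on ranks (10.1%). They numbered 11 among controls (10.9%), 14 among mice labelled knockout (17.7%) and 7 to 14 with a mouse left out. The 14 came without DSS-treated control 3 (12.2%). Members lower numbered 1 (7.04% of all genes were lower) and 0 on the deposited scale (4.16%). They numbered 5 among controls (14.0%), 2 among mice labelled knockout (17.8%) and 1 to 2 with a mouse left out. The 2 came without water-treated mouse 5 labelled knockout (7.28%). The chaperone share in water was 0.988% in controls and 1.063% in mice labelled knockout without immunoglobulin genes. With a mouse left out it was 0.728 to 0.842% and 0.660 to 0.823% in water, and 0.838 to 1.02% and 1.121 to 1.292% after DSS. The heat shock element with 2 units, added after seeing the data, gave 16 promoters in place of 4. In water the genotype differences of Hspa1a (0.009259) and Hspd1 (-0.00778) turned sign with cage as a covariate, and Hspd1 (-0.13) with the replicate block. With a mouse left out they ran from -0.32 to 0.48 for Hspa1a, -0.37 to 0.46 for Hspa1b, -0.23 to 0.0413 for Hspa5 and -0.13 to 0.20 for Hspd1. The causes were not tested. The number of mice limits what can be seen, and depth cannot be read from TPM.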
